A study of Homo sapiens with 12 samples.

Results

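Cells that meet double-stranded RNA sense it with a small set of proteins and, through interferons or directly, switch on a broad antiviral gene program. The 49 genes described here belong to that program: sensors and effectors of double-stranded RNA, transcription factors of the interferon response, interferon-stimulated antiviral genes, and the ligand and chemokines IFNB1, CXCL10 and CXCL11. Genes were chosen by symbol for their known place in the response, with no use of measured values in the rule, but the list was drawn up with earlier results of these data known. Of the 49 genes, 47 had at least 1 probe on the array, 42 had at least 1 probe above background and could be tested, and 5 (IFI44L, TRIM22, CXCL10, CXCL11 and IFNB1) had probes of which none passed the filter on dim signals. No probe was matched to IFI27 or PSMB8-AS1. The 42 genes stand among 18253 tested genes and rest on 326 kept probes of the 436 probes assigned to members.

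RNA came from MDA-MB-231, an established mesenchymal triple-negative breast cancer line, hybridised in biological triplicate to 12 single-color exon arrays in 4 groups of 3. Control cells (cntrl) carried a negative control mimic and the NC1 control siRNA, mimic145 cells the miR-145-5p mimic, sirnaAGO2 cells a Dicer-substrate siRNA against AGO2, and sirnaAGO2+mimic145 cells both active oligonucleotides. According to the labels, mimics were used at 5 nM and siRNAs at 500 pM for 72 h, with a cationic lipid reagent. In the labels, control oligonucleotides are named for the cntrl group alone. The labels do not say whether groups with 1 active oligonucleotide also carried the other control. For its migration assays the paper describes control or miR-145-5p mimic, each in Ago2-silenced or scrambled control cells. It refers back to that design for the arrays. Every group received transfected RNA duplexes, and no group was left untransfected. Whether duplex load differed between compared groups is not given in the labels, and its part in the differences below was not tested. Ago2 is the Argonaute protein that carries a small RNA to its target and can cleave it, and a mimic is a synthetic duplex that supplies the mature microRNA. The mature strand supplied here is printed because its seed defines which transcripts the mimic can pair with. It is shown with bases 2 to 8, the seed, in capitals, as RefSeq lists it at chr5:149430661-149430683 on the plus strand of GRCh38.p14.
hsa-miR-145-5p: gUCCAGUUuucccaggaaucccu

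Interferon-stimulated genes are known to be switched on through a promoter element of paired GAAA blocks that interferon regulatory factors and the STAT complex bind. A motif of that kind, GAAA, any 2 bases and again GAAA, on either strand, was looked for in RefSeq windows from 250 bases before to 50 bases after each gene start. It was present in 1255 of all 35116 windows (3.57%), which are the windows of 27305 genes, 1195 of them with the motif (4.38%). Of the 49 genes, 38 had a window and 25 of these (65.8%) held the motif, a share that describes genes chosen as members of the interferon response. The windows below are those of genes whose level differed with the mimic, 4 that rose and 3 that fell, with the motif in capitals and GRCh38.p14 coordinates of the printed 26 bases. A match describes letters and is not a bound site. The matches shown for ISG15 and TRIM21 overlap another match of the same motif.
IFIT1, chr10:89392512-89392537, minus strand: aacctaggGAAACCGAAAggggaaag
IFIT3, chr10:89332470-89332495, minus strand: ggggaaagGAAAGTGAAActgatgga
ISG15, chr1:1013382-1013407, plus strand: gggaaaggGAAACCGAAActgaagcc
ISG20, chr15:88638939-88638964, plus strand: acaaactaGAAACTGAAAcagggtcg
TLR3, chr4:186069144-186069169, minus strand: gcactctcGAAAGTGAAAgtaaagct
PARP12, chr7:140062944-140062969, plus strand: cgggaaacGAAACCGAAAgcggcccc
TRIM21, chr11:4393668-4393693, minus strand: tctgagcgGAAACTGAAAgtgaaata

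Each array held 420288 spots, and 60.5% to 77.3% of those that are not controls were well above background. The share was 67.6% to 73.4% on the cntrl arrays, 61.6% to 77.3% on mimic145, 69.1% to 74.0% on sirnaAGO2 and 60.5% to 70.8% on sirnaAGO2+mimic145. The 12 arrays lay on 6 slides, 2 arrays of the same replicate number on each, and these were cntrl beside mimic145 or both silenced groups side by side. The array with the mimic always lay at position 2. Mimic and position on the slide cannot be told apart, and silencing comparisons run across slides. The silenced gene was lower in both settings: AGO2 stood at 9.12 ± 0.10 (log2 intensity, SD, n = 3) in cntrl and 8.41 ± 0.05 in sirnaAGO2, and at 9.40 ± 0.04 in mimic145 and 8.34 ± 0.07 in sirnaAGO2+mimic145. AGO2 fell by 0.71 on the log2 scale without the mimic (limma, adjusted p = 0.00491) and by 1.06 with it (limma, adjusted p = 0.000783), and the groups did not overlap. Both calls were lost without replicate 1, 2 or 3, and the call without the mimic also without sirnaAGO2 replicate 1 (adjusted p = 0.0522), while the direction held. All 8 markers of the mesenchymal line were measured with every probe. Of 9 epithelial and luminal markers taken as low in this line, 7 had a kept probe. In a group, 53.8% to 66% of their probes were well above background. In cntrl, KRT19, KRT8, GATA3, EPCAM and CDH1 averaged 13.30, 10.83, 9.65, 8.59 and 8.20, and ERBB2 and ESR1 7.68 and 6.97. All 5 fibroblast and endothelial markers had a kept probe, with 26% to 38% of probes well above background. Of 7 leukocyte markers 6 had a kept probe and none had all, with 16.7% to 22.5% of their probes well above background in a group and a summed log2 level per array of 50.1 to 52.8 in cntrl, 50.9 to 54.1 in mimic145, 50.2 to 51.2 in sirnaAGO2 and 51.3 to 55.8 in sirnaAGO2+mimic145. CD2 had no kept probe, and the part of other cells in the results was not tested.

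The mimic in control cells was set against control oligonucleotides to ask how the interferon program stood when miR-145-5p was supplied. Among the 42 genes, 13 passed the test, 9 of them higher and 4 lower with the mimic. The 9 that rose are ISG15, IFIT2, ISG20, OASL, IFIT1, IFIT3, IFITM3, MX2 and IFITM1, effector genes that encode antiviral proteins. RNA was taken from whole cultures, so that fewer cells with a transcript and less transcript per cell cannot be told apart. The 4 that fell are the RNA sensor TLR3, the ADP-ribosyltransferase PARP12, the ubiquitin ligase TRIM21 and the transcription factor STAT2. Values are limma differences of log2 normalized intensity, fitted with a block for the replicate number, and adjusted p-values are Benjamini-Hochberg values over all 18253 genes. Of all genes, 22.6% were called in this comparison, 11.6% higher and 11% lower, against 31% of the members, 21.4% higher and 9.52% lower. As the list was drawn up with earlier results known, these shares are a description. Without adjustment, 19 members had a p under 0.05, where 35.4% of all genes did. The median member difference was 0.07, and 0.01 over all genes.

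**Figure D1:**
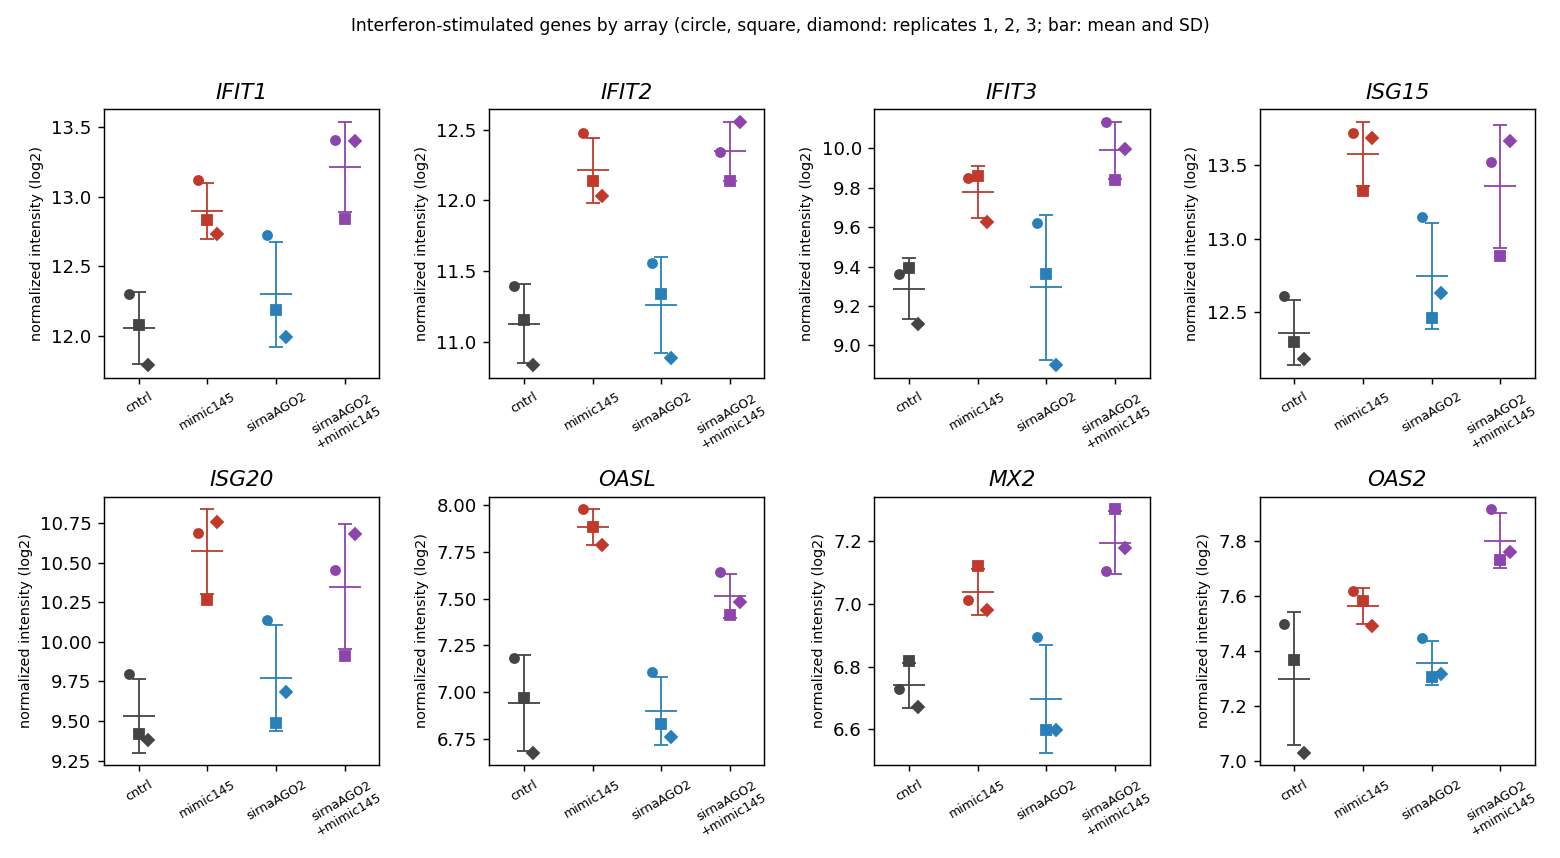
Log2 normalized intensity of 8 interferon-stimulated genes on each of the 12 arrays, by group, with the mean and SD of 3 arrays as bars and 1 symbol for each replicate number; each panel has its own scale. In every panel except OAS2 the mimic145 arrays lie above all cntrl arrays, and except for ISG15 and ISG20 the sirnaAGO2+mimic145 arrays lie above all sirnaAGO2 arrays. The 8 genes are the members called higher with the mimic in Ago2-silenced cells. Of all genes, 14.9% in control cells and 13.9% in silenced cells had every mimic array above every array without it.

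The IFIT proteins bind foreign RNA and hold back its translation. IFIT2 read 11.39, 11.15 and 10.83 on the cntrl arrays and 12.47, 12.13 and 12.03 on the mimic145 arrays. Every mimic145 array was above every cntrl array, a 2.13-fold rise (log2 difference 1.09 ± 0.16, SE, n = 3 a group; adjusted p = 0.00186). IFIT1 read 12.30, 12.08 and 11.79 in cntrl and 13.12, 12.84 and 12.73 in mimic145. The groups were again apart, with a 1.79-fold rise (0.84 ± 0.15, adjusted p = 0.00462). IFIT1 and IFIT2 rest on 1 kept probe each, and their other probe, below the filter, differed in the same direction by 0.43 and 0.74. IFIT3 rested on 4 probes, all higher with the mimic, and read 9.36, 9.39 and 9.11 in cntrl and 9.85, 9.86 and 9.62 in mimic145. It rose by 0.49 ± 0.12 (adjusted p = 0.0216), the least of the 3. IFIT5 differed by 0.21, did not pass (adjusted p = 0.143) and overlapped between groups.

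ISG15 encodes a ubiquitin-like protein that is attached to other proteins and is also secreted. It read 12.61, 12.29 and 12.18 in cntrl and 13.72, 13.32 and 13.69 in mimic145, a 2.32-fold rise and the largest difference among the members (1.22 ± 0.15, adjusted p = 0.000931). Both of its probes showed it, at 1.30 and 1.13. Among genes of its conjugation and removal, the activating enzyme UBA7 fell by 0.29 (adjusted p = 0.00918). The conjugating enzyme UBE2L6 differed by -0.28 (adjusted p = 0.0594), the ligase HERC5 by 0.13 (adjusted p = 0.516), HERC6 by -0.11 and the protease USP18 by -0.50 (adjusted p = 0.167), and none of these 4 passed. USP18 varied widely within mimic145, from 5.63 to 6.82, and only 3 of its 12 probes were kept. ISG20, an exonuclease that degrades RNA, read 9.80, 9.42 and 9.38 in cntrl and 10.69, 10.27 and 10.76 in mimic145. Its rise was 2.06-fold on 3 probes (1.04 ± 0.15, adjusted p = 0.00155), with no overlap of groups.

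Among the sensors and effectors of double-stranded RNA, OASL and TLR3 moved in opposite directions. OASL, an oligoadenylate synthetase-like protein that enhances RIG-I signalling, read 7.18, 6.97 and 6.68 in cntrl and 7.98, 7.88 and 7.79 in mimic145. All 4 kept probes were higher and the gene rose 1.92-fold, with the smallest adjusted p of any member (0.94 ± 0.08, adjusted p = 0.000209). TLR3, the endosomal receptor of double-stranded RNA, read 7.59, 7.37 and 7.20 in cntrl and 6.61, 6.72 and 6.06 in mimic145. It fell 1.90-fold on both kept probes (-0.93 ± 0.13, adjusted p = 0.00131), and its other 3 probes, too dim for the filter, differed by -1.20 to -1.38. The remaining sensors did not pass. IFIH1, the cytosolic sensor MDA5, differed by 0.07, the kinase EIF2AK2 (PKR) by -0.06, the adaptor MAVS by 0.07 and the regulator DHX58 by 0.22. Of the oligoadenylate synthetases, which make a messenger of the antiviral response, OAS1 differed by -0.07, OAS2 by 0.27 (adjusted p = 0.0557) and OAS3 by 0.17.

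Of 6 membrane and GTPase restriction factors, IFITM3, IFITM1 and MX2 passed, and IFITM2, MX1 and BST2 did not. IFITM3, which blocks fusion of viruses in endosomes, read 11.71, 11.81 and 11.84 in cntrl and 12.18, 12.23 and 12.42 in mimic145, a rise of 0.49 ± 0.07 (adjusted p = 0.0015). IFITM1 rose by 0.30 ± 0.09 (adjusted p = 0.037) with overlapping groups, 10.50 to 10.91 in cntrl and 10.81 to 11.24 in mimic145, while all 3 replicate pairs were higher. The IFITM1 call held in 12 of 28 alternatives. IFITM2 differed by 0.27 (adjusted p = 0.0774). IFITM genes are close paralogs, and signal shared between their probes was not separated here. MX2, a dynamin-like GTPase that restricts retroviruses, read 6.73, 6.82 and 6.67 in cntrl and 7.01, 7.12 and 6.98 in mimic145. It rose by 0.30 ± 0.09 at the edge of the threshold (adjusted p = 0.0487), and it passed in 9 of 28 alternative settings. MX1, its neighbour in family, differed by 0.03 on 18 probes (adjusted p = 0.915), and BST2, which tethers budding viruses, by 0.12.

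Of the transcription factors, STAT2 alone passed. STAT2, part of the complex that carries the type I interferon signal to promoters, read 8.41, 8.46 and 8.79 in cntrl and 8.18, 8.18 and 8.56 in mimic145. The groups overlapped, yet each replicate pair was lower, by 0.22 to 0.28 in size, and 21 of 22 probes were lower (-0.24 ± 0.07, adjusted p = 0.0368). That call held in 11 of 28 alternatives. Its partner IRF9 differed by 0.27 (adjusted p = 0.124), and IRF1, IRF2, IRF3 and IRF7 lay between -0.11 and 0.19 without passing. PARP12, an interferon-induced ADP-ribosyltransferase, read 8.92, 8.79 and 8.83 in cntrl and 8.34, 8.18 and 8.21 in mimic145. It fell 1.52-fold on all 11 kept probes (-0.61 ± 0.06, adjusted p = 0.000407). TRIM21, a cytosolic antibody receptor and ubiquitin ligase, read 7.01, 6.85 and 7.02 in cntrl and 6.50, 6.40 and 6.60 in mimic145, and fell by 0.46 (adjusted p = 0.0117). The other members, among them IFI44 (0.51, adjusted p = 0.0547), IFI6 (0.32), XAF1 (-0.30) and SAMD9 (-0.31), did not pass.

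Scaling each array by its 75th percentile gave 11 calls, 9 higher and 2 lower. Leaving out arrays lowered the count of 13 to 7 without replicate 1 and to 8 without cntrl replicate 1. The methods' paired t-test called 18 members before adjustment and 0 after Benjamini-Hochberg adjustment over all genes, a test that called 0 of all genes. Its share of all genes before adjustment is not reported here. Groups did not overlap for 12 members that were higher (28.6%, against 14.9% of all genes) and 4 that were lower, where 13.5% of all genes were. Of the 9 genes that rose, 6 had a promoter window, and all 6 held the motif printed above, as did 3 of the 4 that fell (not STAT2). Among the 29 tested members that did not pass, 22 had a window and 12 of them (54.5%) held it.

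The same comparison within Ago2-silenced cells used 6 other arrays and so shares none with the comparison in control cells. Of the 42 members 9 passed, 8 higher and 1 lower, which is 21.4% where 7.28% of all genes were called (4.25% higher, 3.03% lower). The median was 0.14, against 0.02 over all genes. Without adjustment, 18 members had a p under 0.05, where 28.8% of all genes did, and the groups did not overlap for 10 members that were higher (13.9% of all genes) and 2 that were lower (10.2% of all genes). IFIT1, IFIT2, IFIT3, ISG15, ISG20, OASL, MX2 and OAS2 rose, and PARP12 fell. Of these 9, 8 were called in the same direction in control cells, 7 higher and 1 lower, which is 61.5% of the 13 and 88.9% of the 9. Over all genes, 796 calls were shared in direction, 19.3% of the 4121 in control cells and 59.9% of the 1328 in silenced cells. With only the arrays of both silenced groups in the fit, 0 members passed in limma (smallest adjusted p = 0.11). In that fit 15 members had an unadjusted p under 0.05, and the share of all genes in it is not reported here.

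**Figure D2:**
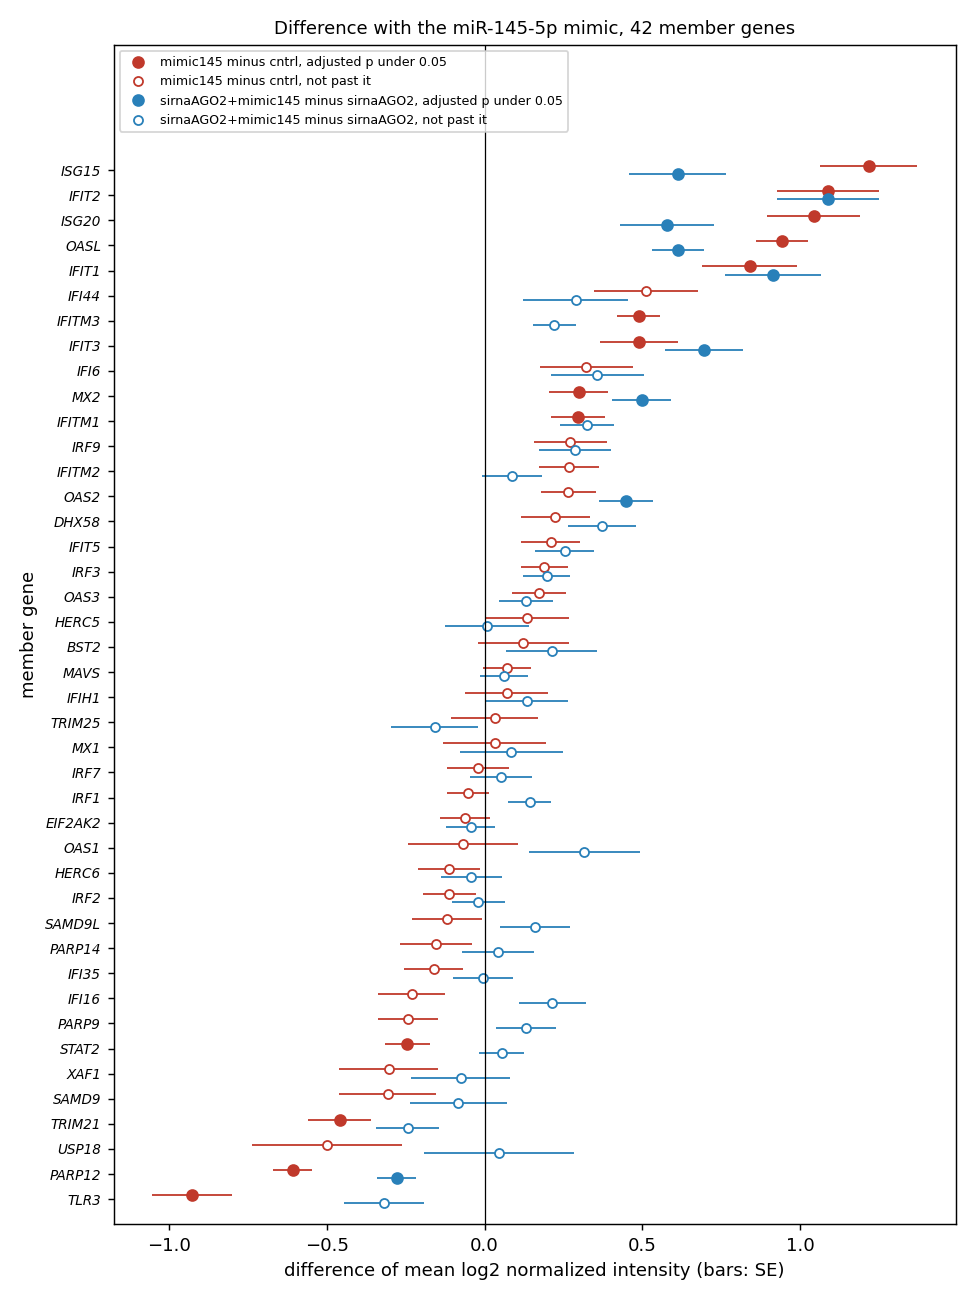
Log2 difference with the miR-145-5p mimic for the 42 tested genes, where red stands for control cells and blue for Ago2-silenced cells, with bars for the SE and filled circles for an adjusted p under 0.05. IFIT1, IFIT2 and IFIT3 lie to the right at similar distances in both arms, ISG15, ISG20 and OASL lie further out in control cells, and TLR3 and PARP12 lie furthest to the left in control cells.

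IFIT2 read 11.55, 11.34 and 10.88 in sirnaAGO2 and 12.34, 12.14 and 12.56 in sirnaAGO2+mimic145, a rise of 1.09 ± 0.16 (adjusted p = 0.0122). IFIT1 read 12.722, 12.186 and 11.995 in sirnaAGO2 and 13.41, 12.84 and 13.40 with the mimic, a rise of 0.91 ± 0.15 (adjusted p = 0.0162). IFIT3 read 9.62, 9.36 and 8.90 in sirnaAGO2 and 10.13, 9.84 and 9.99 with the mimic, a rise of 0.69 ± 0.12 (adjusted p = 0.0198). For all 3 IFIT genes the groups did not overlap, and replicate 3 had the widest pair, at 1.40, 1.67 and 1.10 for IFIT1, IFIT2 and IFIT3. OASL read 7.11, 6.83 and 6.76 in sirnaAGO2 and 7.64, 7.41 and 7.48 with the mimic. It rose by 0.61 ± 0.08, again with the smallest adjusted p of any member (adjusted p = 0.00937). MX2 read 6.89, 6.60 and 6.60 in sirnaAGO2 and 7.10, 7.30 and 7.18 with the mimic, a rise of 0.50 ± 0.09 (adjusted p = 0.022). OAS2 read 7.45, 7.30 and 7.31 in sirnaAGO2 and 7.92, 7.73 and 7.76 with the mimic, and all 9 of its probes were higher (0.45 ± 0.09, adjusted p = 0.0238). PARP12 fell by 0.28 (adjusted p = 0.0363), from 8.59 to 8.62 in sirnaAGO2 to 8.24 to 8.45 with the mimic.

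ISG15 and ISG20 stood close to the threshold. ISG15 read 13.15, 12.46 and 12.63 in sirnaAGO2 and 13.52, 12.88 and 13.67 with the mimic, so that replicate 2 with the mimic was below replicate 1 without it (0.61 ± 0.15, adjusted p = 0.0471). ISG20 differed by 0.58 in the same way, with overlapping groups (adjusted p = 0.0498). ISG15 passed in 6 of 28 alternative settings and ISG20 in 8. IFITM1 at 0.32 (adjusted p = 0.0538), DHX58 at 0.37 (adjusted p = 0.0686) and IFITM3 at 0.22 (adjusted p = 0.0785) did not pass. TLR3, which had fallen in control cells, differed by -0.32 and did not pass (adjusted p = 0.142), and on 1 of the 3 sirnaAGO2+mimic145 arrays neither of its kept probes was well above background. The count of 9 was 1 without the block for the replicate number and 4 with the slide as a fixed block. It also depended on single arrays, and was 0 without replicate 2, without replicate 3, without sirnaAGO2 replicate 2 and without sirnaAGO2 replicate 3. It was 2 without replicate 1, 4 without sirnaAGO2+mimic145 replicate 2 and 3 without sirnaAGO2+mimic145 replicate 3. Where the count was 0, 16, 11, 14 and 12 members had an unadjusted p under 0.05 in limma in the order named. The share of all genes in those fits is not reported here, and in the main fit it was 28.8%. The directions of the 9 genes did not turn. Each had 1 sign in all 3 replicate pairs, so leaving out a whole replicate could not turn them.

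Whether the mimic acted on these genes differently in the presence and absence of silencing was tested by the difference between both arms. No member passed in limma (smallest adjusted p = 0.134, for PARP12), where 2 of all 18253 genes (0.011%) did, 1 in each direction (0.00548% each). At an unadjusted p under 0.05 there were 8 members in limma, where 16.8% of all genes passed, and 8 by the methods' paired t-test. For IFIT2 the difference was 0.00 with a 95% interval of -0.52 to 0.52, for IFIT1 0.07 (-0.41 to 0.56) and for IFIT3 0.21 (-0.19 to 0.60). ISG15 rose less in silenced cells by estimate, with a difference of -0.61 (-1.10 to -0.11), as did OASL (-0.33, -0.60 to -0.06) and IFITM3 (-0.27, -0.49 to -0.05). TLR3 (0.61, 0.20 to 1.01), PARP12 (0.33, 0.13 to 0.53), STAT2 (0.30, 0.07 to 0.53), IFI16 (0.44, 0.11 to 0.78) and PARP9 (0.37, 0.07 to 0.68) had positive differences. These intervals are not adjusted for the number of genes. TLR3 was dim in silenced cells, at 6.35 in sirnaAGO2 and 6.03 in sirnaAGO2+mimic145. In the latter group 0 of its 5 probes were well above background on all 3 arrays. Its 3 probes below the filter differed with the mimic in silenced cells by 0.17, 0.08 and -0.87. The part of low signal in the TLR3 difference was not tested. The 8 genes from ISG15 to PARP9 are those with an unadjusted limma p under 0.05. Each had 1 sign in all 3 replicates, which goes with how they were picked. Of the 42 members, 7 were higher and 5 lower in all 3 replicates, and the share of all genes is not reported here. For IFIT2 the replicates gave -0.30, -0.18 and 0.48.

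AGO2 silencing without the mimic asked how the program stood when Ago2 was lowered. Of the 42 members, 3 passed and all were lower: IFI16, TLR3 and IRF1. That is 7.14% of the members, where 2.58% of all genes were called, 1.69% lower and 0.888% higher. The median member difference was 0.01, against -0.03 over all genes. At an unadjusted p under 0.05 there were 11 members, where 19% of all genes passed, and the groups did not overlap for 5 members that were higher and 5 that were lower (8.48% and 10.6% of all genes). This comparison shares the cntrl arrays with the comparison of the mimic in control cells, so values of TLR3 in both rest on the same controls.

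**Figure D3:**
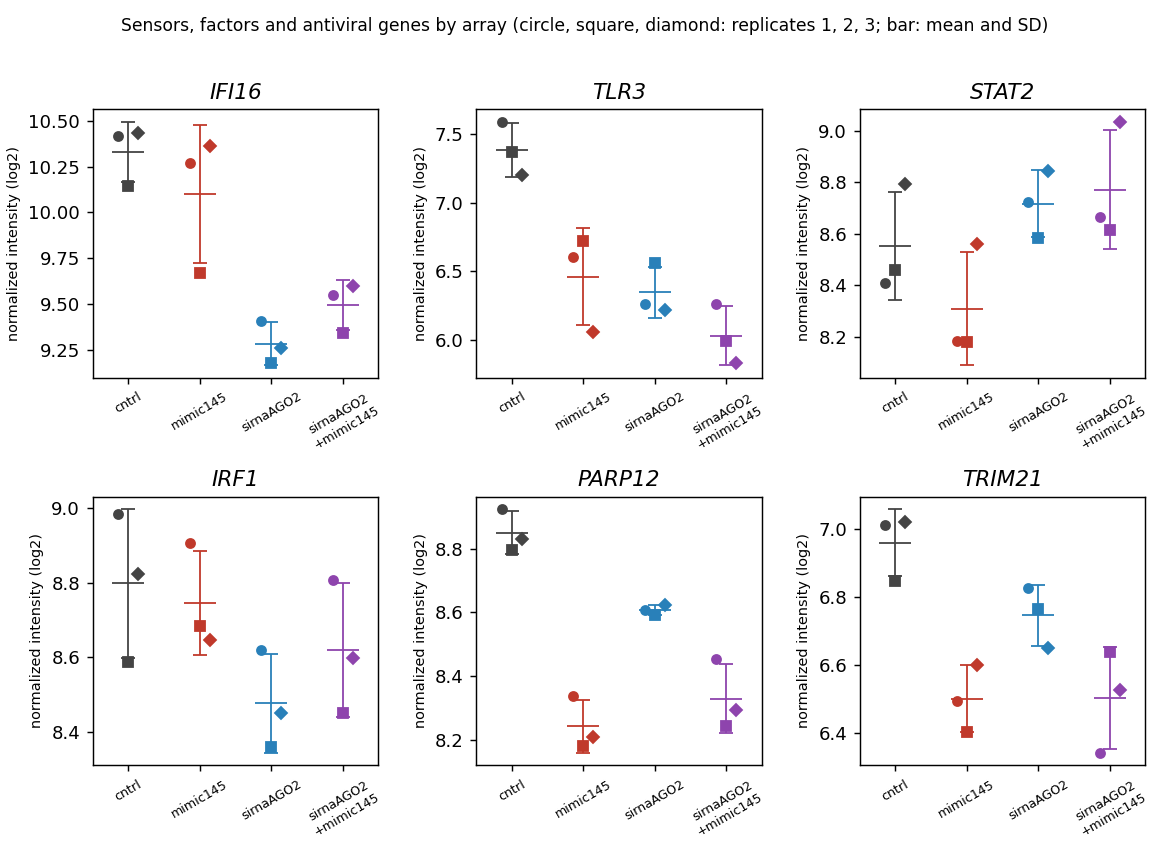
Log2 normalized intensity of 6 members on each of the 12 arrays by group, with mean and SD of 3 arrays as bars and 1 symbol for each replicate number; each panel has its own scale. IFI16 lies lower in both silenced groups, TLR3 is highest in cntrl, and PARP12 is highest in cntrl and lowest on arrays with the mimic.

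IFI16, a sensor of foreign DNA and a transcriptional regulator, read 10.42, 10.14 and 10.43 in cntrl and 9.41, 9.18 and 9.26 in sirnaAGO2. All 11 probes were lower and the gene fell 2.07-fold (-1.05 ± 0.11, adjusted p = 0.00338). TLR3 read 6.26, 6.56 and 6.22 in sirnaAGO2, against the 7.20 to 7.59 of cntrl, a 2.06-fold fall (-1.04 ± 0.13, adjusted p = 0.00849). IRF1, an activator of interferon genes, read 8.98, 8.59 and 8.82 in cntrl and 8.62, 8.36 and 8.45 in sirnaAGO2. The groups overlapped and each pair was lower (-0.32 ± 0.07, adjusted p = 0.0441), and the call held in 8 of 27 alternatives. IFIT1, IFIT2 and IFIT3 differed by 0.24, 0.13 and 0.01 and did not pass, nor did ISG15 at 0.39 (adjusted p = 0.217) or OASL at -0.04. SAMD9L differed by -0.42 (adjusted p = 0.0859) and PARP12 by -0.24 (adjusted p = 0.0796). The count of 3 was 0 without replicate 1 and without replicate 3, and 1 without replicate 2, without cntrl replicate 1, without sirnaAGO2 replicate 1 and without sirnaAGO2 replicate 3. With the slide as a random block, which reflects that both groups lay on different slides, 1 member passed. Where the count was 0, 4 and 12 members had an unadjusted p under 0.05 in limma. The share of all genes in those fits is not reported here, and in the main fit it was 19%.

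With the mimic present in both groups, silencing gave 4 calls: STAT2 higher, and IFI16, OASL and IFITM3 lower. That is 9.52% of the members, where 4.32% of all genes were called, 1.87% higher and 2.44% lower. IFI16 read 10.27, 9.67 and 10.36 in mimic145 and 9.55, 9.34 and 9.60 in sirnaAGO2+mimic145, and fell by 0.61 (adjusted p = 0.0198). STAT2 read 8.18, 8.18 and 8.56 in mimic145 and 8.66, 8.61 and 9.04 in sirnaAGO2+mimic145, a rise of 0.46 with 21 of 22 probes higher (adjusted p = 0.0132). OASL fell by 0.37 (adjusted p = 0.0432) and IFITM3 by 0.37 (adjusted p = 0.0243), and for all 4 the groups did not overlap. The calls of STAT2, IFI16, OASL and IFITM3 held in 19, 15, 6 and 14 of 27 alternatives. OASL and IFITM3 had risen with the mimic in control cells, a comparison that shares the mimic145 arrays. The median member difference was 0.11, against 0.00 over all genes. At an unadjusted p under 0.05 there were 14 members, where 21.5% of all genes passed, and the groups did not overlap for 4 members in each direction (6.22% of all genes higher, 8.57% lower).

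The count of 4 was 0 without replicate 1, without replicate 2, without replicate 3 and without mimic145 replicate 1. It was 1 without mimic145 replicate 3 or sirnaAGO2+mimic145 replicate 1, and 2 without mimic145 replicate 2 or sirnaAGO2+mimic145 replicate 3. With 75th percentile scaling it was 4, but 2 in each direction. It was 0 without the block for the replicate number, where 10 members had an unadjusted p under 0.05 in limma. It was 0 with the slide as a random block and 7 where each probe had to be well above background on every array. Where leaving out arrays gave 0, between 11 and 18 members had an unadjusted p under 0.05 in limma. The share of all genes in those fits, or without the block, is not reported here, and in the main fit it was 21.5%.

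**Figure D4:**
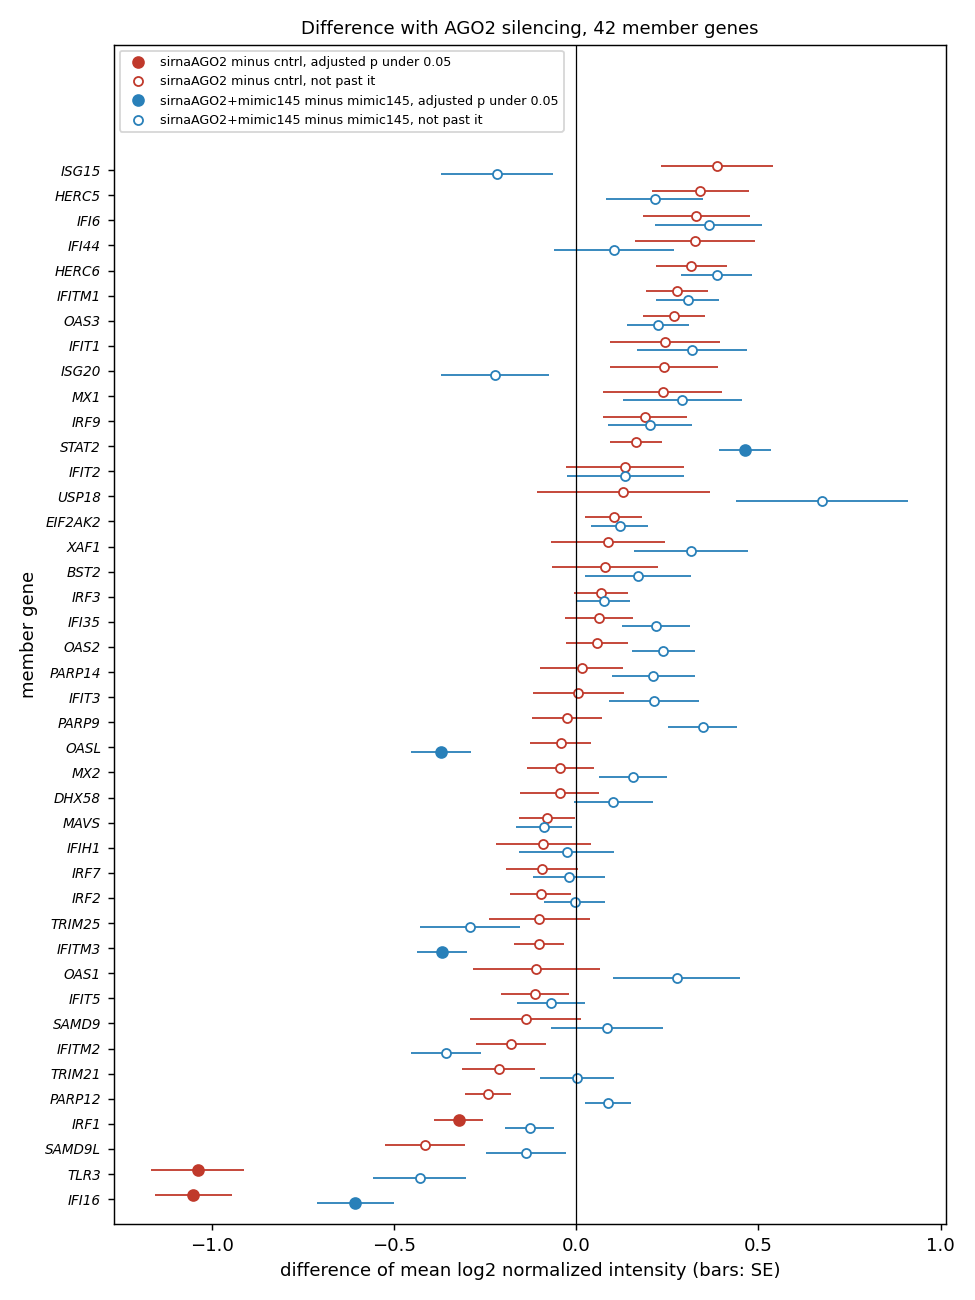
Log2 difference with AGO2 silencing for the 42 tested genes, without the mimic (red) and with it (blue), with bars for the SE and filled circles for an adjusted p under 0.05. IFI16 and TLR3 lie near -1 without the mimic, IFI16 is filled in both, and STAT2 is the filled circle to the right.

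**Figure D5:**
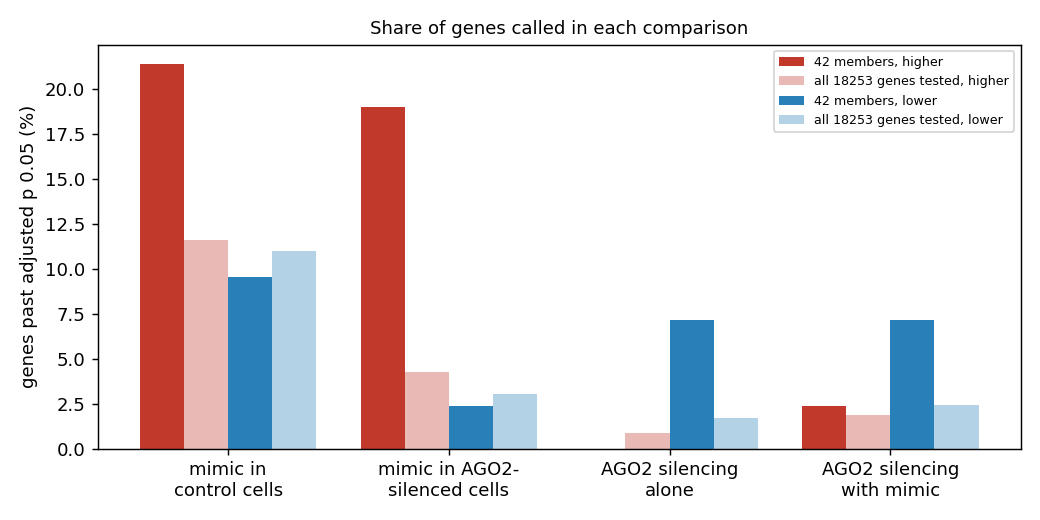
Share of genes with an adjusted p under 0.05 in each of 4 comparisons, for the 42 tested members (full color) and all 18253 genes (pale), higher in red and lower in blue. With the mimic, 21.4% of the members were higher in control cells and 19% under AGO2 silencing, against 11.6% and 4.25% of all genes.

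Other genes of the pathway were read from 6 lists, whose counts stand beside the 22.6% of all genes called with the mimic in control cells. Among 14 tested receptors and kinases of interferon signalling, 7 passed with the mimic in control cells, 2 higher and 5 lower. Among those that fell were IFNGR2 (-0.65, adjusted p = 0.000407), IL10RB, JAK1 and IFNAR1, and TYK2 and SOCS1 rose. Of 18 tested signalling genes below the sensors, 6 passed in control cells, 3 in each direction: RELA (0.53, adjusted p = 0.000845), TRAF3 and CGAS rose, and IKBKE (-0.68, adjusted p = 0.000285), MYD88 and RNF135 fell. The calls of IFNAR1, TRAF3 and RNF135 held in 12, 12 and 10 of 28 alternatives. RIGI, the cytosolic RNA sensor, differed by 0.30 and did not pass (adjusted p = 0.0627).

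Of 37 tested other double-stranded RNA binding proteins and antiviral effectors, 9 passed with the mimic in control cells, 4 higher and 5 lower. RSAD2, the antiviral enzyme viperin, read 6.83, 6.15 and 6.42 in cntrl and 8.01, 7.02 and 7.71 in mimic145, a 2.17-fold rise (adjusted p = 0.0018). In Ago2-silenced cells it differed by 0.51 and did not pass (adjusted p = 0.0866). DHX33, an RNA helicase, rose by 0.71, and ADAR and DHX36 rose too, while SP100, GBP3, GBP2 and UBA7 were among those that fell. Of 17 antigen presentation genes 5 passed, 1 higher (PSMB10) and 4 lower, PSMB9, ERAP1 and ERAP2 among them. Of 15 tested cytokines and other targets of NF-kappaB 5 passed: TNF, IL6 and ICAM1 rose and CSF2 (-1.03, adjusted p = 0.000177) and CXCL1 fell. Of 9 interferon ligands 3 could be tested, and none passed in limma in any comparison. At an unadjusted p under 0.05 there was 1 of the 3 with silencing in the presence of the mimic and 0 in the other comparisons.

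In Ago2-silenced cells, where 7.28% of all genes were called, 5 genes of these lists passed with the mimic. They were 1 of 14 receptors and kinases, 1 of 18 signalling genes and 1 of 37 binding proteins and effectors. The other 2 were among 15 NF-kappaB targets, and none of 17 antigen presentation genes or 3 interferon ligands passed. TNF (0.49), EPSTI1 (0.44) and SOCS1 rose, and CSF2 (-0.55) and IKBKE (-0.35) fell. These calls held in 17, 4, 10, 20 and 14 of 28 alternatives, in that order. Silencing alone (2.58% of all genes called) gave a rise of DICER1, which makes microRNAs from their precursors (0.41, adjusted p = 0.0243), and falls of ERAP1, UBA7 and GBP2, among others. The calls of DICER1, ERAP1, UBA7 and GBP2 held in 14, 8, 13 and 9 of 27 alternatives. Silencing alone called 3 of 37 binding proteins and effectors, 1 of 14 receptors and kinases and 1 of 17 antigen presentation genes. None passed in the remaining lists. With the mimic in both groups (4.32% of all genes called), silencing gave rises of CSF2 (0.70), APOBEC3G (0.61), EPSTI1 (0.59) and TNF and a fall of DHX33. These 5 calls held in 20, 13, 13, 4 and 2 of 27 alternatives, in that order. They were 3 of 37 binding proteins and effectors and 2 of 15 NF-kappaB targets, with none in the remaining lists.

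Some members stayed out of these tests for want of signal. The single IFNB1 probe was not well above background on any array, nor was any of the 4 CXCL10 probes. For CXCL11, a chemokine induced by interferon, none of 6 probes was well above background on any cntrl array. On mimic145 replicates 1 and 3, sirnaAGO2 replicate 1 and sirnaAGO2+mimic145 replicate 3, 3 of the 6 were well above background, and 4 were on sirnaAGO2+mimic145 replicate 1.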

How the data were processed

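The authors labelled total RNA with 1 dye, hybridised it to exon arrays and read the slides with Agilent Feature Extraction 10.7.3.1 on a design of build hg19. The deposited processed signal is an intensity corrected for background within the array. A deposited table of log2 values, which the authors quantile normalized, was used as an alternative. Control spots and the 304 to 462 outlier spots per array were left out. Intensities under 1 would be set to 1 (0 spots were), and signals were quantile normalized, log2 transformed and averaged per probe. A probe was kept where the 3 arrays of 1 or more groups all had it well above background, and a gene is the mean of its kept probes. Probes were named through their transcript accession in RefSeq (GRCh38.p14), 209671 of 233164 probes. Tests were two-sided, by limma 3.58.1 in R 4.3.3 (lmFit and eBayes, all 12 arrays, 4 groups and a block for the replicate number), with Benjamini-Hochberg adjustment over 18253 genes and a threshold of 0.05.

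Same-numbered arrays deviated together from their group means (r of 0.148 to 0.576 over 18 pairs, against -0.497 to 0.201 for other pairs), so the numbers were taken as pairs. Replicates are biological according to the labels, with no word on separate cultures, so p-values measure the spread between these samples. All slides were scanned on 1 day. Precision is limited by the small number of arrays. The members and lists were chosen with earlier results of these data known. Of the list genes, those that passed may be named, and values follow the 3 largest rises and falls per comparison with at least 3 kept probes and 1 sign in all pairs. SOCS1, on 1 probe, is therefore given without a value. RSAD2 in silenced cells, RIGI, UBE2L6 and the value of UBA7 were added after their values were seen. Alternatives were other scalings and background corrections, filters, the median over probes, no block, slide blocks, other sets of arrays, an intensity trend, the methods' t-test, and leaving out replicates or arrays. The slide as a fixed block was added after the data were seen. Some genes of the pathway lists are counted but not reported by name here.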

Additional observations from a re-analysis of the deposited data

Results flagged for a closer look

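The comparisons did not use CXCL11, since none of its 6 probes passed the filter on dim signals, but 3 of the 6 were well above background on mimic145 replicates 1 and 3 and 0 on the cntrl arrays. The mean of its 6 probes was 4.17, 3.91 and 3.94 in cntrl, 5.64, 5.16 and 4.75 in mimic145, 4.95, 4.13 and 3.94 in sirnaAGO2, and 5.61, 4.46 and 5.29 in sirnaAGO2+mimic145. Every mimic145 array lay above every cntrl array, while both silenced groups overlapped. These means lie near or under the lowest log2 signal called well above background on an array, 5.38 to 5.73 in cntrl, so no fold or test is given, and the difference of 1.18 between the means of mimic145 and cntrl without the filter is a description of signals of which those in cntrl were not well above background.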

How the results depend on the processing

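Of 28 alternatives, none turned the direction of a member or list gene that passed. For members this was partly fixed beforehand, as each that passed had 1 sign in all 3 replicate pairs. Leaving out a whole replicate therefore could not turn it, and alternatives that changed only the test kept the same difference. For the mimic in control cells (13 members), leaving out replicates or arrays gave 7 to 15, and the methods' t-test 18 before and 0 after Benjamini-Hochberg adjustment. The median member difference of 0.07 was 0.118 with 75th percentile scaling, 0.0491 with normexp, 0.09996 with the median over probes, and 0.0147 to 0.121 when replicates or arrays were left out. For the mimic in Ago2-silenced cells (9), the count was 1 without the replicate block, 0 with arrays of the compared groups alone, 4 with the slide as a fixed block, 0 by the adjusted t-test and 0 to 9 when replicates or arrays were left out. For silencing alone (3), it was 5 when each probe had to be well above background on every array, 1 with the slide as a random block, 9 and 0 by the t-test before and after adjustment, and 0 to 3 with replicates or arrays left out. For silencing with the mimic (4), it was 7 under the same strict filter, 1 with the median over probes, 0 without the replicate block, 0 with the slide as a random block, 0 with arrays of the compared groups alone, 10 and 0 by the t-test before and after adjustment, and 0 to 4 with replicates or arrays left out. For the difference between arms (0), the unadjusted t-test gave 8. AGO2 kept its difference of -0.71 without the mimic but missed the threshold by the adjusted t-test (adjusted p = 0.24), and leaving out replicates or arrays gave -0.783 to -0.641. It also missed it without replicate 1, 2 or 3 (adjusted p = 0.221, 0.114 and 0.166) and without sirnaAGO2 replicate 1 (adjusted p = 0.0522). With the mimic its difference of -1.06 missed it with arrays of the compared groups alone (adjusted p = 0.188) and by the adjusted t-test (adjusted p = 0.303), and without replicate 1, 2 or 3 (adjusted p = 0.0756, 0.0515 and 0.0721), and leaving out gave -1.106 to -0.998. Without the replicate block 10 members had an unadjusted p under 0.05 in silencing with the mimic and 14 with the mimic in silenced cells. For the alternatives, shares of all genes are not reported here, so their counts of members have no such share beside them. The causes were not tested, except that leaving out arrays or comparing fewer arrays means fewer samples in the fit. Signal over background limits what can be said of CXCL10, CXCL11, IFNB1, IFI44L and TRIM22.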
